A study of Mus musculus with 8 samples.

Results

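Hepcidin control and iron handling were followed in mouse liver by RNA sequencing through 10 genes, chosen by their names among the 45706 genes of the deposited table. They are the hepcidin genes Hamp and Hamp2, Bmp6, Tfr2 and Id1 of the pathway that controls hepcidin, the iron exporter Slc40a1, the carrier Trf and its receptor Tfrc, and the ferritin subunits Fth1 and Ftl1. The libraries came from 4 WT and 4 SA/SA female C57BL/6J mice, each 4 months old and taken after an overnight fast. In SA/SA mice both copies of Plin5, which encodes a lipid droplet protein, carry S155A, a serine changed to alanine, which cannot be phosphorylated. It is a CRISPR-Cas9 knock-in of the whole body, not of the liver alone, and was checked by sequencing in a founder. No other allele or agent is named, and all mice were fasted, so a fed liver was not compared. The labels also give each mouse an animal number, and 2 mice of each genotype have a number under 200 (low series, replicates 1 and 4) and 2 a number over 800 (high series, replicates 2 and 3). What the numbers record is not stated, so birth cohort, cage, day of harvest or anything else that goes with them cannot be told apart.

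Hepcidin is a peptide that hepatocytes secrete and that makes ferroportin, the product of Slc40a1, leave the cell surface, so that less iron enters the blood from the gut and from macrophages. Its gene is switched on by BMP6, which the endothelial cells of the liver sinusoids make and which acts through SMAD proteins in the hepatocyte, and by interleukin 6 acting through STAT3 during inflammation. Ferritin, transferrin receptor and ferroportin are further set after transcription, by iron regulatory proteins that bind a hairpin in their mRNAs.

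The sequences of the 2 hepcidin genes are shown because their reads have to be told apart. The windows before their RefSeq start sites also differ in the motif through which SMAD proteins act. Hamp (ENSMUSG00000050440) and Hamp2 (ENSMUSG00000056978) are neighbours on chromosome 7 of GRCm38, at chr7:30942368-30944032 and chr7:30922372-30924681, both on the reverse strand and both with 3 exons. The 250 bases before each RefSeq start site (build GRCm38.p6, reverse strand, chr7:30944030-30944279 and chr7:30924182-30924431) were 91.9% identical over 247 aligned positions and read as follows, with motif matches in capitals.
Hamp: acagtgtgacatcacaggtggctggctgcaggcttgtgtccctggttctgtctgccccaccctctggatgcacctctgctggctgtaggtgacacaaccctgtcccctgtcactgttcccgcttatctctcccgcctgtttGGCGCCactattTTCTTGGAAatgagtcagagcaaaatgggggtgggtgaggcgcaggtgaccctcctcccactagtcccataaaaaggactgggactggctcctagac
Hamp2: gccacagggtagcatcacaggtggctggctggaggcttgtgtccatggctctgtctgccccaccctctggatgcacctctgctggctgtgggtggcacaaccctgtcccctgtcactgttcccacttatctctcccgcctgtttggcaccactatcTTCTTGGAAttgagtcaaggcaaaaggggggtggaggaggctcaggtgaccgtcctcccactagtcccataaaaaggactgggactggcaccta
The first capitals in Hamp are GGCGCC, the core of the element that binds SMAD proteins, at bases -109 to -104 from the start site. Hamp2 held no match to GGCGCC in its window. That window lies inside the GENCODE gene of Hamp2, which reaches chr7:30924681, and the bases upstream of this gene end were not searched. Both held the STAT-type motif TTCNNNGAA, at -97 to -89 in Hamp and -94 to -86 in Hamp2. Searched on both strands, GGCGCC was present in 9.54% and TTCNNNGAA in 7.18% of the 27025 promoters of the same length. Neither window held the E-box CACGTG, present in 6.05% of promoters, or TATAAA, present in 13.0%. These matches describe letters and no binding was measured.

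The mature messages of Hamp and Hamp2 are about as close as those windows. Their principal transcripts, of 410 and 437 bases, were 94.6% identical over 410 aligned positions, and the coding sequences 93.6%. Of the 380 stretches of 31 bases in the Hamp transcript, 128 occur in Hamp2 as well, and reads confined to those stretches were divided between the genes by salmon's model. The sum of both genes is therefore given beside each of them. Gm44662 is annotated across both genes in the other direction, and the sources used here do not give the strand setting of the counts.

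The hairpins are shown because they mark which members are also set after transcription, which RNA counts see only in part. A search of the principal transcripts for a C, 5 bases, the loop CAGTG followed by A, C or T, and 5 bases able to pair with the first 5 (G with T allowed) found 7 matches, all outside the coding sequence. At least 1 transcript of 272 of 21951 annotated protein-coding genes, or 1.24%, held the pattern. Each match is printed over 26 bases of the GENCODE M21 transcript (GRCm38), with the loop in capitals.
Fth1, 5′ UTR, chr19:9982733-9982758, forward strand: tcctgcttcaaCAGTGCttgaacgga
Ftl1, 5′ UTR, chr7:45459781-45459806, reverse strand: tcttgcttcaaCAGTGTttgaacgga
Slc40a1, 5′ UTR, chr1:45925467-45925492, reverse strand: aacttcagctaCAGTGTtagctaagt
Tfrc, 3′ UTR, chr16:32631220-32631245, forward strand: attatcggaagCAGTGCcttccataa
Tfrc, 3′ UTR, chr16:32631599-32631624, forward strand: attatcgggagCAGTGTcttccataa
Tfrc, 3′ UTR, chr16:32631664-32631689, forward strand: tatatcggagaCAGTGAtctccatat
Tfrc, 3′ UTR, chr16:32631711-32631736, forward strand: attatcgggaaCAGTGTttcccataa
A hairpin before the coding sequence, as in both ferritins and Slc40a1, is known to block translation when it is bound. Those behind the coding sequence of Tfrc are known to protect the message from decay. The other 6 members had no match.

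Library totals ran from 39709785 to 54540864 counts. Values below are CPM, counts scaled to a common library size after TMM normalization of library size, and differences are log2 fold changes from edgeR's quasi-likelihood test with their standard error (SE). All 10 genes passed the filter on low counts, with 14629 genes tested. Plin5, the edited gene, ranged from 183 to 254 CPM in WT mice and from 192 to 457 CPM in SA/SA mice, and gene counts do not read the codon. The labels name the tissue, liver, and no cell type. The 7 hepatocyte markers together took 95880 to 130200 CPM, so hepatocytes were present. The markers of 6 other liver and blood cell types were detected as well, and the values are those of whole liver. In such samples fewer cells of a type and less RNA per cell cannot be told apart. The summed markers of lymphocytes and plasma cells were 97.7 CPM in SA/SA replicate 3 against 5.80 to 13.4 CPM elsewhere, those of pancreatic acinar cells 29.3 CPM in WT replicate 2 against at most 0.612 CPM elsewhere, and those of red blood cells 416 to 2651 CPM in WT mice. Their part in the results was not tested.

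Per kilobase of principal transcript, Trf and Ftl1 were the most abundant members, with means over the 8 mice of 4746 ± 570 and 4633 ± 540 CPM per kb (SD), and their mice overlapped. Hamp followed at 2631 ± 1031 and Fth1 at 1324 ± 116 CPM per kb, again overlapping because Hamp spread from 1014 to 3799. Hamp2 was at 404 ± 208 and Tfr2 at 176 ± 10.4 CPM per kb, and the lowest Hamp2 mouse lay within the range of Tfr2. Id1 at 32.4 ± 12.8 and Slc40a1 at 23.6 ± 4.58 CPM per kb overlapped as well. Tfrc at 3.02 ± 1.08 and Bmp6 at 0.775 ± 0.232 CPM per kb were the lowest, and neither overlapped its neighbour. Hamp2 (4.13-fold), Hamp (3.75-fold) and Id1 (3.52-fold) had the widest spans from lowest to highest mouse, and Tfr2 (1.21-fold) and Fth1 (1.26-fold) the narrowest.

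SA/SA mice were first compared with WT mice. None of the 10 genes was called at an adjusted p under 0.05, as for all genes tested (0 of 14629, 0%), and none reached an unadjusted p of 0.05, which 3.4% of all genes did. In SA/SA mice 6 were higher and 4 lower, with a median log2 fold change of 0.04 against -0.01 over all genes. No member had groups that did not overlap, where 2.3% of all genes did. The smallest adjusted p of a member was 0.993 in edgeR's quasi-likelihood test.

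The 4 high series mice were then compared with the 4 low series mice, with genotype as a term, and again none of the members was called. Hamp2 was 2.56-fold higher in the high series. It was the only member at an unadjusted p under 0.05, reached by 12.8% of all genes (6.64% higher and 6.19% lower), and the only one whose groups did not overlap, as in 6.85% of all genes (3.53% with the high series higher and 3.32% with it lower). No gene of the 14629 passed an adjusted p of 0.05 in edgeR's test, with 1877 at an unadjusted p under 0.05, and 38 genes (0.26%) passed 0.1. With DESeq2 408 genes (2.79%) passed 0.05, and with no filter on low counts 514 of 22439 did.

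Hamp2, the second mouse hepcidin gene, was at 72.5, 113, 92.2 and 118 CPM in the low series (WT replicates 1 and 4, SA/SA replicates 1 and 4). In the high series it was at 289, 181, 247 and 300 CPM (WT replicates 2 and 3, SA/SA replicates 2 and 3). Every high series mouse was above every low series mouse, in both genotypes. The log2 fold change was 1.36 (SE 0.19, edgeR adjusted p = 0.0618), rank 11 by p of all genes tested. A two-sided exact permutation test gave p = 0.0286, the smallest possible with 4 against 4 mice. High minus low was 1.33 within WT mice and 1.38 within SA/SA mice in mean log2 CPM, with an interaction of 0.04 (SE 0.39). Hamp2 passed an adjusted p of 0.05 with DESeq2 (2.25e-08), with no filter on low counts (1.86e-07), without the genotype term (0.0430, where 0.082% of all genes passed) and without WT replicate 3 (0.0234, where 0.746% passed), and edgeR's adjusted p in the runs that left out 1 mouse ranged up to 0.236. Between genotypes Hamp2 averaged 164 ± 94.7 CPM (WT, SD, n = 4) and 189 ± 99.8 CPM (SA/SA, SD, n = 4), with a log2 fold change of 0.21 (SE 0.46).

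Hamp, the main hepcidin gene, did not follow Hamp2. It was at 1459, 1456, 859 and 819 CPM in WT replicates 1 to 4 and at 1558, 416, 735 and 1327 CPM in SA/SA replicates 1 to 4. Each genotype held high and low mice, and the lowest 2 of all 8 were the SA/SA mice of the high series. This grouping was taken from the values, and the share of all genes lowest in the same 2 mice was not computed. The same mice stood apart in the sum of hepatocyte markers, at 127000 and 130200 CPM against 95880 to 112500 CPM in the other 6. Most of this sum was Alb, at 63060 to 97390 CPM, and no other marker exceeded 14230 CPM. Of the 7 markers, 5 had a positive and 2 a negative interaction, with a median of 0.20 against -0.01 over all genes. The part of this in the values of Hamp, Bmp6, Atoh8 and Id2 was not tested. The means of Hamp were 1148 ± 357 CPM (WT, SD, n = 4) and 1009 ± 526 CPM (SA/SA, SD, n = 4), with a log2 fold change of -0.19 (SE 0.38, edgeR adjusted p = 0.996). In mean log2 CPM, SA/SA minus WT was 0.40 among low series mice and -1.02 among high series mice. Read the other way, high minus low was 0.03 in WT mice and -1.38 in SA/SA mice, and over both genotypes the log2 fold change was -0.65 (SE 0.34, edgeR adjusted p = 0.464) and -0.36 without SA/SA replicate 2. The test of the interaction gave -1.35 (SE 0.51, unadjusted p = 0.0275, edgeR adjusted p = 0.387), which ranked 1039 of 14629, and 11.1% of all genes were at an unadjusted p under 0.05. With no filter on low counts the adjusted p of this interaction was 7.22e-07, in a fit that called 3.41% of its genes.

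**Figure D1:**
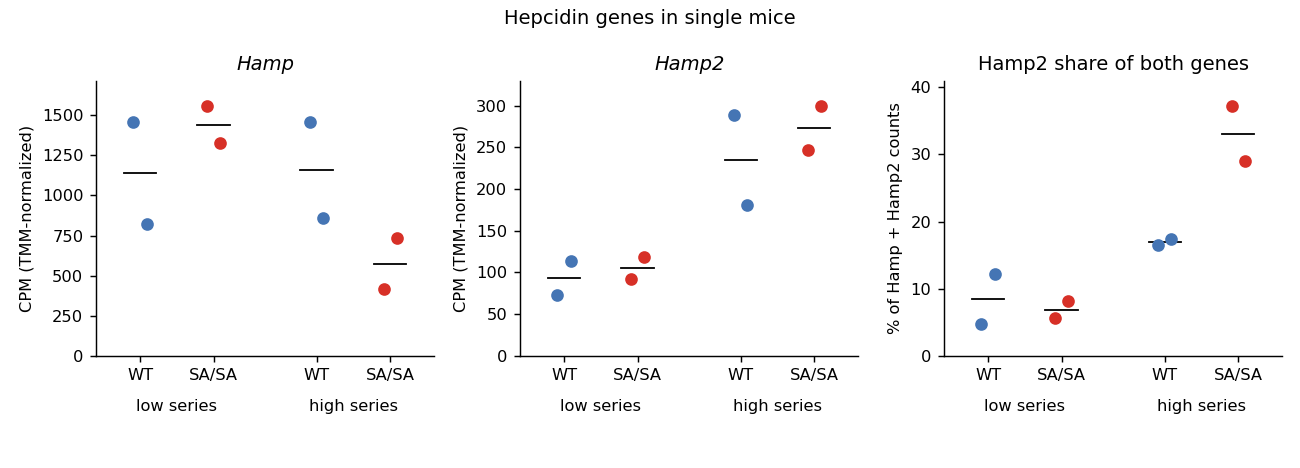
Hamp (left) and Hamp2 (middle) in CPM, and Hamp2 as a percent of the counts of both genes (right), with a point for each mouse, bars at the mean of 2 mice, WT in blue and SA/SA in red. Hamp2 lay between 72.5 and 118 CPM in the low series and between 181 and 300 CPM in the high series, while Hamp was lowest in the SA/SA mice of the high series, at 416 and 735 CPM.

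The balance of the genes was computed after their values were seen, so it is given with no test. Hamp2 made up 4.73% and 12.2% of the counts of both genes in the low series WT mice and 5.59% and 8.18% in the low series SA/SA mice. In the high series it was 16.6% and 17.4% in WT and 37.2% and 29.0% in SA/SA mice. The series did not overlap in this share, and the highest 2 values were those of the mice with the least Hamp. By its definition the share rises when Hamp is lower or Hamp2 higher, so it restates the values of both genes. The sum of both genes was at 1531, 1745, 1040 and 933 CPM in WT replicates 1 to 4 and 1650, 662, 1034 and 1446 CPM in SA/SA replicates 1 to 4. The sum gave log2 fold changes of -0.13 (SE 0.29) between genotypes and -0.35 (SE 0.28) between series, which was -0.12 without SA/SA replicate 2, and an interaction of -1.05 (SE 0.45, unadjusted p = 0.0470, edgeR adjusted p = 0.440).

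Of the genes upstream of Hamp, Bmp6, the ligand, lies at chr13:38345107-38500302 (forward strand) and was the scarcest member, with 68 to 193 counts per mouse. Txndc5, at 126 to 167 CPM, and 4930579J19Rik overlap it on the reverse strand, and the strand setting of the counts is not given. Bmp6 was at 2.07, 3.09, 2.89 and 3.63 CPM in WT replicates 1 to 4 and at 3.30, 1.68, 1.80 and 3.82 CPM in SA/SA replicates 1 to 4. The SA/SA mice of the high series were the lowest, as for Hamp. The share of all genes with this grouping was again not computed. SA/SA minus WT was 0.37 among low and -0.77 among high series mice, with an interaction of -1.10 (SE 0.47, unadjusted p = 0.0437, edgeR adjusted p = 0.435), and the genotype difference was -0.14 (SE 0.31). The summed markers of sinusoidal endothelial cells, its known source, were 216 and 278 CPM in those 2 mice and 240 to 312 CPM in the other 6. The 216 CPM of SA/SA replicate 2 was the lowest of all, and the part of these markers in the value of Bmp6 was not tested.

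Tfr2 (chr5:137569840-137587481, forward strand), a receptor by which hepatocytes sense iron-loaded transferrin, was the steadiest member. It ran from 496 to 541 CPM in WT and from 467 to 564 CPM in SA/SA mice, with log2 fold changes of -0.01 (SE 0.10) between genotypes and -0.04 (SE 0.10) between series. Its mice overlapped in both comparisons.

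Id1 (chr2:152736251-152737410, forward strand), a target gene of BMP signalling, differed more among WT mice than between groups. It was at 14.6, 51.4, 16.2 and 26.6 CPM in WT replicates 1 to 4 and at 32.6, 30.7, 30.7 and 39.7 CPM in SA/SA replicates 1 to 4. All SA/SA mice lay inside the WT range. The log2 fold change was 0.30 (SE 0.35, edgeR adjusted p = 0.993) between genotypes, 0.81 without WT replicate 2 and 0.10 without WT replicate 1. Between series it was 0.24 (SE 0.36) and -0.28 without WT replicate 2. The interaction was -0.95 (SE 0.66, edgeR adjusted p = 0.633) and 0.11 without WT replicate 2, the mouse with the most Id1 and with acinar markers at 29.3 CPM. With no filter on low counts the edgeR adjusted p of the interaction was 0.00746, in a fit that called 3.41% of its genes.

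Slc40a1 (chr1:45908068-45926523, reverse strand), the exporter that hepcidin removes, was at 94.5, 69.7, 99.0 and 86.2 CPM in WT replicates 1 to 4 and at 92.6, 70.2, 65.3 and 58.1 CPM in SA/SA replicates 1 to 4. The means were 87.4 ± 12.9 CPM (WT, SD, n = 4) and 71.5 ± 14.9 CPM (SA/SA, SD, n = 4), and the groups overlapped. The log2 fold change was -0.29 (SE 0.16, edgeR adjusted p = 0.993) and SA/SA minus WT was -0.30 in each series. It was lower in SA/SA mice whichever mouse was left out, from -0.44 to -0.20. Kupffer cells also express Slc40a1, and their 8 markers together ran from 221 to 439 CPM in WT and from 231 to 498 CPM in SA/SA mice.

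Trf (chr9:103204001-103230444, reverse strand), the iron carrier of plasma, was at 10170 and 12240 CPM in WT and 10300 and 11930 CPM in SA/SA mice of the low series. In the high series it was at 13920 and 11850 CPM in WT and 13950 and 13260 CPM in SA/SA mice. Only WT replicate 3 of the high series fell within the low range. The log2 fold change between series was 0.25 (SE 0.12, edgeR adjusted p = 0.416) and between genotypes 0.04 (SE 0.14). Trf was the member most like Hamp2 over the 8 mice (Pearson r = 0.912, Spearman rho = 0.810), given as a description over mice that share the series split. Of its 31-base stretches 80.7% also occur in Gm20425, an overlapping annotation on the same strand that took 54.98 to 81.5 CPM.

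Tfrc (chr16:32608920-32632794, forward strand), the receptor that takes up transferrin iron, had 1 mouse apart. SA/SA replicate 2 was at 27.6 CPM, the other SA/SA mice at 12.9, 13.7 and 14.1 CPM and the WT mice at 12.4, 14.0, 11.7 and 11.8 CPM. The log2 fold change between genotypes was 0.45 (SE 0.23, edgeR adjusted p = 0.993) with this mouse and 0.13 without it. Between series it was 0.35 (SE 0.21) with this mouse and 0.06 without it. The same mouse had the least Hamp of all, at 416 CPM, and stellate cell markers at 121 CPM against 205 to 340 CPM elsewhere. Its red blood cell markers, at 1160 CPM, lay inside the range of the other mice. The part of these markers in the value of Tfrc was not tested.

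Fth1 (chr19:9980598-9985098, forward strand) and Ftl1 (chr7:45457944-45459884, reverse strand), the heavy and light subunits of the ferritin shell that stores iron, had small differences. Fth1 was at 1163, 1269, 1105 and 1115 CPM in WT replicates 1 to 4 and at 1161, 1392, 1340 and 1293 CPM in SA/SA replicates 1 to 4. SA/SA replicates 2 to 4 were above every WT mouse, and the log2 fold change was 0.16 (SE 0.10, edgeR adjusted p = 0.993). The exact permutation test, also two-sided, gave p = 0.0857. Ftl1 was at 3720, 5265, 4417 and 4270 CPM in WT replicates 1 to 4 and at 5239, 4244, 4290 and 4434 CPM in SA/SA replicates 1 to 4, a log2 fold change of 0.04 (SE 0.13). SA/SA mice were the higher in the low series, by 0.27, and the lower in the high series, by -0.18. Of the 31-base stretches of Ftl1 85.4% also occur in 30 other annotated genes, 17 of them pseudogenes, and the 25 of these in the table summed to 29.1 to 40.3 CPM.

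**Figure D2:**
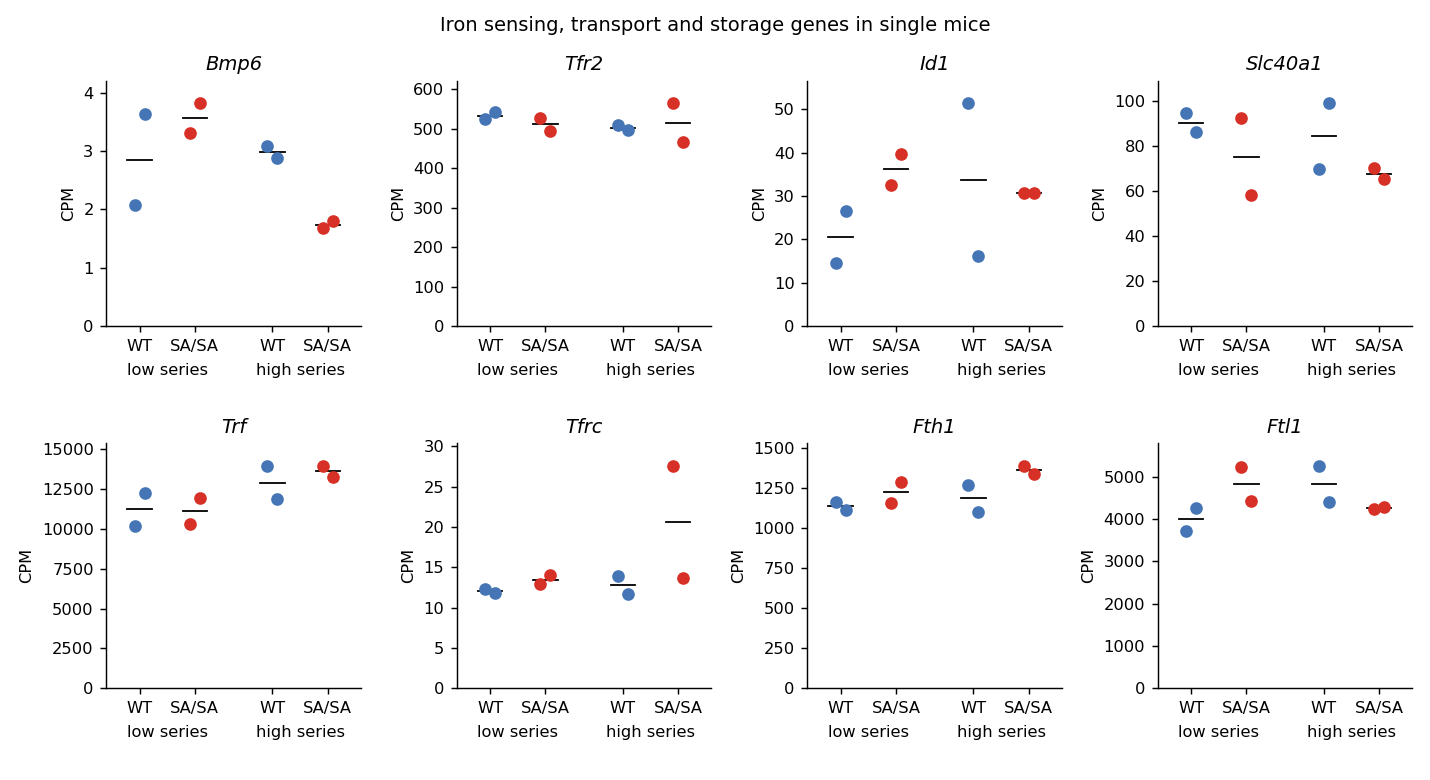
CPM of the other 8 genes, a point per mouse, bars at the mean of 2 mice, WT in blue and SA/SA in red, each axis starting at 0. Bmp6 was lowest in the SA/SA mice of the high series (1.68 and 1.80 CPM), and Tfrc stood out in 1 SA/SA mouse (27.6 CPM).

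**Figure D3:**
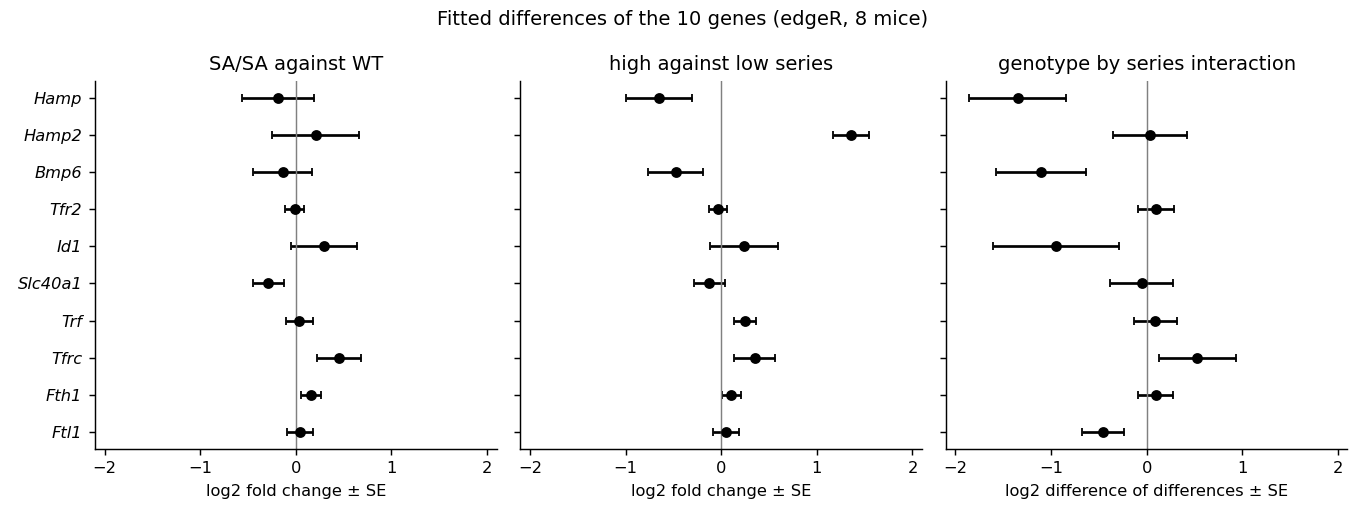
Log2 differences of the 10 genes with their SE in the comparison of genotypes, in that of animal number series and in the interaction. Hamp2 between series, at 1.36 (SE 0.19), was the largest relative to its error, and Hamp and Bmp6 had the most negative interactions, at -1.35 and -1.10.

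The wider pathway was read from 3 lists with 51 further genes, of which 48 were tested (Fam132b, Steap1 and Scara5 had too few counts). None was called in any of the 3 comparisons. Between genotypes 1 was higher and 2 were lower in SA/SA mice at an unadjusted p under 0.05, which 1.42% and 1.98% of all genes did. Neo1, which encodes neogenin, a partner of the BMP co-receptor hemojuvelin, was at 14.8 to 17.7 CPM in WT and 11.1 to 13.5 CPM in SA/SA mice, so the groups did not overlap, as in 1.36% of all genes with SA/SA lower (log2 fold change -0.38, SE 0.11). Bmp2, another BMP ligand of liver endothelium, was at 9.75 to 14.8 and 5.44 to 10.7 CPM (-0.55, SE 0.22), and Hmox1, which breaks down heme, at 12.3 to 25.8 and 13.9 to 47.99 CPM (0.76, SE 0.34). For all 3 the edgeR adjusted p was 0.993. The list medians lay between -0.08 and -0.02 against -0.01 over all genes.

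Between series 4 of the 48 were higher and 5 lower in the high series at an unadjusted p under 0.05 (12.8% of all genes). They included the genes that encode the iron regulatory proteins. Aco1, for the first of them, was at 134 to 162 CPM in the low and 163 to 186 CPM in the high series (log2 fold change 0.25, SE 0.10). Ireb2, for the second, was at 35.5 to 46.3 and 29.8 to 35.0 CPM (-0.29, SE 0.10). Neither overlapped, as in 3.53% of all genes with the high series higher and 3.32% with it lower. Of the ferrireductases, Steap2 was at 6.66 to 8.65 and 2.53 to 8.38 CPM (-0.68, SE 0.23), Steap4 at 31.9 to 73.1 and 52.5 to 144 CPM (0.86, SE 0.34), and Steap3 had a log2 fold change of -0.20 (unadjusted p = 0.143, edgeR adjusted p = 0.539). Atoh8 and Id2, both target genes of BMP signalling, had log2 fold changes of -0.68 (SE 0.26) and -0.46 (SE 0.18). The smallest edgeR adjusted p among the 48 genes was 0.277.

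In the interaction of genotype with series 12 of the 48 were positive and 5 negative at an unadjusted p under 0.05 (11.1% of all genes). Over the whole list of hepcidin regulation, 12 of 22 genes were positive and 10 negative, of which 6 and 4 were at an unadjusted p under 0.05. The 6 positive ones were Stat3, Fgl1, Smad4 (0.996, SE 0.26), Bmpr1a (0.68, SE 0.22), Il6ra (1.46, SE 0.50) and Acvr1 (0.86, SE 0.31). The 4 negative ones were Atoh8, Id2, Smad7 (-1.40, SE 0.42) and Id3 (-1.26, SE 0.52). Atoh8, a BMP target gene, was at 33.1, 44.1, 35.1 and 47.1 CPM in WT replicates 1 to 4 and at 48.8, 22.8, 20.3 and 60.6 CPM in SA/SA replicates 1 to 4, lowest in the SA/SA mice of the high series (interaction -1.33, SE 0.29, edgeR adjusted p = 0.253). Id2, another one, was lowest in the same mice, at 73.0 and 76.6 CPM against 100 to 145 CPM in the other 6 (interaction -0.84, SE 0.24, edgeR adjusted p = 0.297). As for Hamp and Bmp6, the share of all genes with this grouping was not computed.

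Stat3, the transcription factor through which interleukin 6 acts, was at 142, 88.7, 92.7 and 150 CPM in WT replicates 1 to 4 and at 91.1, 136, 156 and 85.4 CPM in SA/SA replicates 1 to 4. Mice of the WT low and SA/SA high cells had the most and did not overlap the other 4. This grouping was taken from the values, and the share of all genes split in the same way was not computed. The interaction was 1.41 (SE 0.17, edgeR adjusted p = 0.0851), with 5 genes (0.0342%) under 0.1 and 11.1% at an unadjusted p under 0.05. Fga and Fgb, fibrinogen chains, had interactions of 1.17 (SE 0.19) and 1.08 (SE 0.20), Socs3, the feedback inhibitor of STAT3, 1.60 (SE 0.33) and Fgl1, a secreted antagonist of BMP6, 1.94 (SE 0.40). All 10 acute phase genes on the list were lower in SA/SA mice in the low series (median -0.65) and higher in the high series (median 0.53). All 10 interactions were positive, as were 7188 of the 14629 genes tested. Their median was 1.24 against -0.01 over all genes, and 0.88 without WT replicate 1, which had the most acute phase RNA. At an unadjusted p under 0.05 were 8 of the 10, against 11.1% of all genes in either direction, and none was called. Cd163, the hemoglobin receptor of macrophages, gave 1.66 (SE 0.34), and all 8 Kupffer cell markers were positive too, with a median of 1.34. Summed Kupffer markers were 277 and 439 CPM in WT and 351 and 231 CPM in SA/SA mice of the low series, and 221 and 258 CPM in WT and 498 and 363 CPM in SA/SA mice of the high series. Their part in the values of Hamp and of the acute phase genes was not tested.

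**Figure D4:**
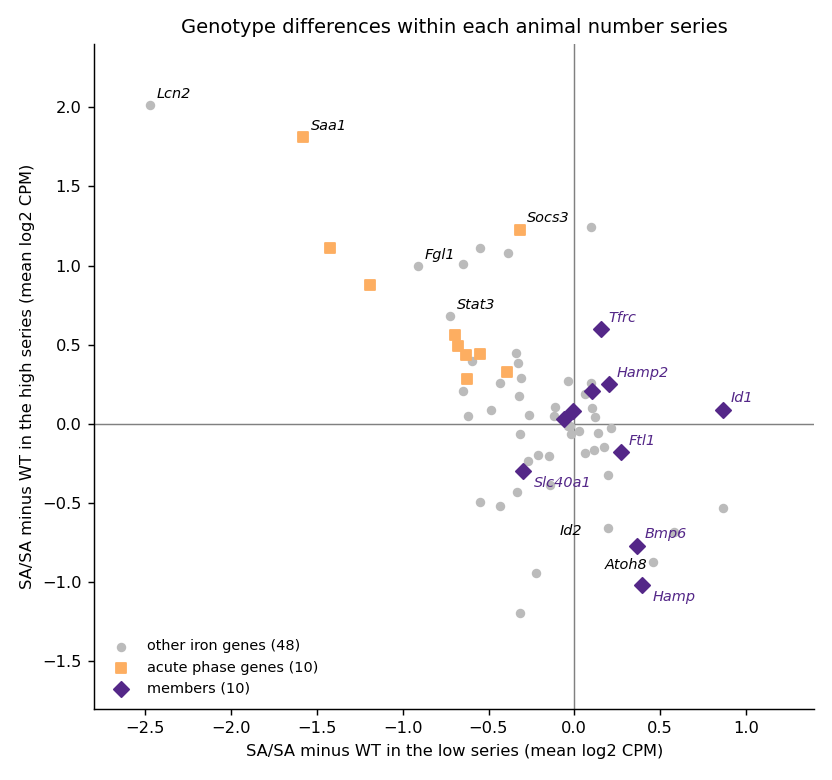
SA/SA minus WT in mean log2 CPM within the low series (horizontal) and within the high series (vertical), 2 against 2 mice, for the 10 members (diamonds), 48 further iron genes (circles) and 10 acute phase genes (squares). Hamp at 0.40 and -1.02 and Bmp6 at 0.37 and -0.77 lie in the lower right with Atoh8 and Id2, and all 10 acute phase genes in the upper left. Id1, also a target gene of BMP signalling, lies in the upper right at 0.87 and 0.09.

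For Hamp, Tfrc and Id1 the 5 genes with the most similar log2 CPM over the 8 mice were listed among 9165 genes with a mean of at least 5 CPM, as a description. Those of Hamp were Gm4673, Usp33, Kcmf1, Nop14 and Atxn2l (Pearson r from 0.930 to 0.969), and none of them is on the iron lists. Those of Tfrc were Bloc1s1, Hfe2, Rpl10-ps3, Mrpl54 and Ppia (0.907 to 0.940), of which Hfe2 encodes hemojuvelin, the BMP co-receptor that hepcidin expression needs. Hfe2 was at 84.3 to 94.1 CPM in WT and 88.3 to 116 CPM in SA/SA mice, and the likeness of all 5 includes the single mouse with high Tfrc. Those of Id1 were Gltscr2, A430005L14Rik, Tomm34, Mrps18a and Trmt1 (0.934 to 0.954). Added after the values were seen, the genes most like Hamp2 were Btbd9, Serpina6, Cmtm8, Gamt and Sgms1 (0.963 to 0.974).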

How the data were processed

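Liver RNA of 8 mice was sequenced from stranded mRNA libraries as paired reads. The authors deposited 1 table of estimated counts per gene, whose name gives salmon and length scaling, with no normalization for library size. Per the labels the submitters' processing notes name bcl2fastq, STAR, SAMtools, MultiQC, DESeq2 and GRCm38. The salmon version, annotation and use of strand are not given in the sources used here. Columns were matched to mice by animal number.

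Estimated counts, rounded to integers, were filtered with filterByExpr and tested with edgeR 4.0.16 (R 4.3.3, quasi-likelihood test, TMM, Benjamini-Hochberg over 14629 genes, threshold 0.05). SE came from the F statistic. Log2 CPM used a prior count of 2. The fit was tested on simulated data. Genotype had no covariate, series had genotype as a term, and the interaction had both. Single genes were also compared by two-sided exact permutation tests (scipy 1.17.1). No libraries were copies (chi-square per gene of the closest pair, 40.3). Alternatives were DESeq2 1.42.0, limma-voom (limma 3.58.1), other scalings and filters, blocks, a prior count of 0.5 and leaving out each mouse. Acute phase medians under these alternatives were added after seeing the data.

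Members and lists were chosen with earlier results of these data known. The text names all members, pathway or acute phase genes at an adjusted p under 0.05 or up to 6 further ones with the smallest unadjusted p per comparison, and 5 most similar genes for Hamp, Tfrc and Id1. Every hepcidin regulation gene at an unadjusted p under 0.05 in the interaction was added, to show both directions. Of the table's 45706 identifiers, 45143 are in GENCODE M21, which gave coordinates, principal transcripts (the lowest numbered) and hairpins. RefSeq promoters were found for 7 of 10 members, and those of Hamp and Hamp2 were used. The deposited length scaling can shift the value of a gene that uses different isoforms in different mice.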

Additional observations from a re-analysis of the deposited data

Results flagged for a closer look

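In 4 sets of 4 mice for each of the 10 genes (40 in all), 1 mouse stood apart by more than Dixon's 95% critical value, where chance gives about 2. It was SA/SA replicate 2 for Tfrc, at 27.61 CPM among SA/SA mice that were otherwise between 12.9 and 14.1 CPM.

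Ftl1 changed direction with the animal number series. Both SA/SA mice of the low series were above both WT mice, by 0.27 in mean log2 CPM, and both SA/SA mice of the high series were below both WT mice, by -0.18. The share of all genes that separate in this way, with 2 mice against 2, was not computed. The interaction was -0.46 (SE 0.22, unadjusted p = 0.0657, edgeR adjusted p = 0.481), which did not pass the threshold. It ranked 1994 of 14629 by p, and 11.1% of all genes were at an unadjusted p under 0.05.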

How the results depend on the processing

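Counts of called genes moved most. Between genotypes DESeq2 called 6 genes against 0 in edgeR and in the runs that left out 1 mouse, where the count was 0 throughout. Between series DESeq2 called 408, no filter on low counts 514 and no genotype term 12, and leaving out 1 mouse gave 0 to 111, the most without WT replicate 3. For the interaction DESeq2 called 285, limma-voom 1 and no filter 765, and leaving out 1 mouse gave 0 to 40, the most without WT replicate 4. The cause was not tested. Hamp2 between series passed 0.05 with DESeq2 (1.356), no filter (1.351) and no genotype term (1.358), and its log2 fold change stayed between 1.21 and 1.501 with each mouse left out. With no filter the interactions of Hamp (-1.36), Id1 (-0.96) and the sum of both hepcidin genes (-1.06) passed.

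Library size alone shifted the median interaction of all genes to -0.159 and turned the small interactions of Hamp2 (-0.0919), Tfr2 (-0.0581), Trf (-0.0532) and Fth1 (-0.0538), the series difference of Ftl1 (-0.0216) and the genotype difference of Trf (-0.00818), and limma-voom turned the interaction of Slc40a1 (0.00508). None of these was called.

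With each mouse left out, the genotype difference ran from -0.475 to 0.0809 for Hamp, -0.103 to 0.631 for Hamp2, -0.366 to 0.0356 for Bmp6, -0.0535 to 0.0318 for Tfr2, -0.0315 to 0.115 for Trf, -0.0315 to 0.139 for Ftl1 and -0.325 to 0.0784 for the sum of both hepcidin genes, crossing 0 in each, and from 0.0974 to 0.805 for Id1. The series difference ran from -0.948 to -0.356 for Hamp and -0.612 to -0.115 for the sum. The series difference crossed 0 for Id1 (-0.279 to 0.420), Slc40a1 (-0.242 to 0.0275) and Ftl1 (-0.0482 to 0.142). The interaction crossed 0 for Hamp2 (-0.321 to 0.415), Tfr2 (-0.0480 to 0.226), Id1 (-1.55 to 0.112), Slc40a1 (-0.351 to 0.321), Trf (-0.0477 to 0.223), Tfrc (-0.0668 to 0.950) and Fth1 (-0.00130 to 0.198), and kept its sign for Hamp, Bmp6 and Ftl1.

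Whether replicate numbers pair the mice is not stated, and the values do not settle it. The correlations of same-numbered WT and SA/SA mice were 0.0565, 0.166, -0.111 and 0.129 for replicates 1 to 4. WT replicates 1, 2 and 4 were each closest to the same-numbered SA/SA mouse, and WT replicate 3 to SA/SA replicate 4 (0.140). The replicate block called 0 genes between genotypes, and the numbers cannot block the series comparison because each belongs to 1 series. With 2 mice per genotype and series, no interaction of a member passed the threshold in edgeR with the filter on low counts, which does not show that its genotype difference was the same in both series.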
